A study of Bos taurus with 6 samples.

Results

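The genes described here belong to the neuromuscular junction and to the Schwann cells that sheathe the motor axon, as read in cattle longissimus dorsi, which runs along the back. They were chosen by name, from 8 genes: the acetylcholine receptor subunits CHRNA1, CHRNB1, CHRND and CHRNE, the receptor kinase MUSK, the adhesion molecule NCAM1, and the myelin genes PMP22 and MBP. The array annotation used here named 6 of the 8, with 8 probe sets among the 24016 that are not controls. No probe set was named for MUSK or PMP22, so these genes were not analysed here. The muscle came from steers, castrated males, of 2 breeds: 3 Japanese Black, beef cattle prized for marbling, and 3 Holstein, a dairy breed. All 6 animals received energy-rich feed, and no other feed was analysed here, so the comparison is between breeds under that feed. Their age and the spot in the muscle from which tissue was taken are not stated in the labels used here. Each animal gave 1 array.

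At the end plate, the small patch of a fibre under the nerve terminal, acetylcholine released by the motor axon opens a pentameric receptor built from alpha, beta, delta and epsilon subunits in the adult. The fetal receptor carries a gamma subunit in place of epsilon. Agrin from the nerve acts through LRP4 and MUSK to cluster receptors, and nuclei beneath the synapse transcribe the subunit genes far more than the other nuclei of the fibre. When the nerve is lost, transcription of several of these genes and of NCAM1 spreads along the whole fibre, driven in part by myogenin. Schwann cells wrap the axon in myelin, whose membranes are compacted with the help of myelin basic protein.

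Array medians were 48.5 to 54.7 intensity units, and the upper quartile was between 172 and 181 in 5 arrays, with Japanese Black 3 apart at 205. Of 9 genes that mark muscle fibres 7 were annotated, and each was read at 6083 intensity units or more in all 6 steers. Of 25 further Schwann cell and myelin genes sought, 10 were annotated. The nerve sheath is represented here by MBP and by these 10 genes, some of which, like MBP, other cells can also express. In whole muscle, fewer cells of a type and less RNA per cell cannot be told apart. Values below are deposited signals in intensity units, and each difference is Japanese Black minus Holstein, computed from log2(signal + 16) and tested with limma over 18012 probe sets.

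None of the members passed an adjusted p of 0.05 between the breeds. The count was 0 of 7 member probe sets tested, where 0.0167% of all probe sets tested passed (3 of 18012). The adjusted p of the members lay between 0.313 and 0.823. At an unadjusted p under 0.05 there was 1, a probe set of MBP, a share of 14.3% of the members against 12.6% of all probe sets tested, or 5.28% when only those lower in Japanese Black are counted. The breeds did not overlap at that same 1 of 7, again 14.3%, against 19.8% of all probe sets tested, or 8.84% counted in that direction. Among the 7 tested, 2 differences were toward Japanese Black and 5 toward Holstein. The share toward Holstein was 71.4%, against 49.0% of all probe sets tested. The median of the 7 was -0.19, beside a median of 0.01 over all probe sets tested. Of the 5 toward Holstein 3 belong to the single gene MBP. The median of the members depended on single animals and on the filter: it was -0.02, with 3 differences toward Japanese Black and 4 toward Holstein, without Japanese Black 1, -0.08 without Holstein 1 or Holstein 3, and -0.0012, with 2 in each direction, when the dimmest 50% were left out. The plot of signals by steer shows the values behind these counts.

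**Figure D1:**
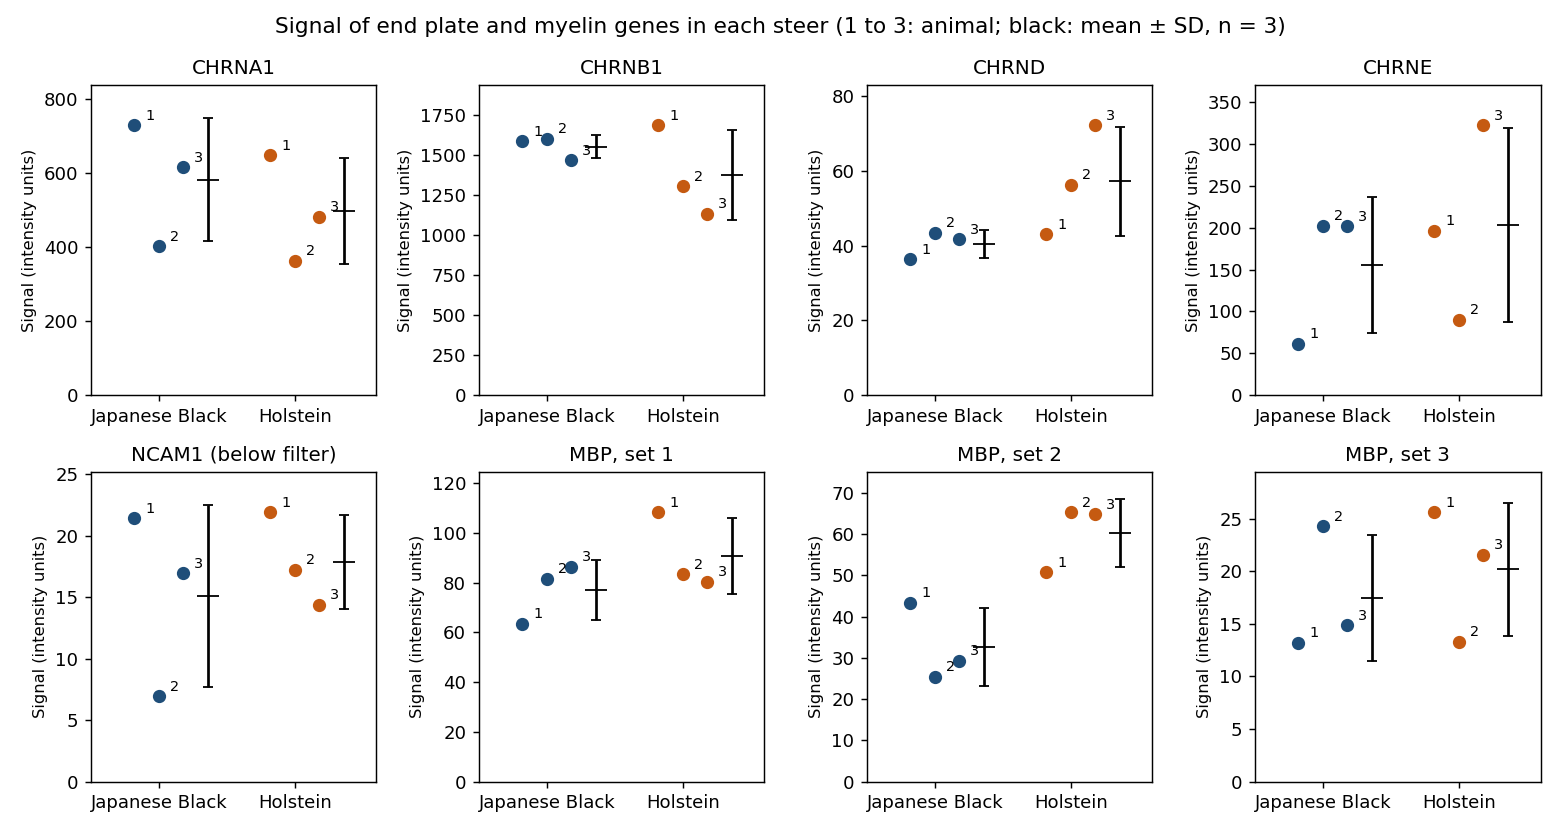
Signal in intensity units (vertical axes start at 0) of each of the 8 member probe sets in 3 Japanese Black and 3 Holstein steers; points are animals, numbered 1 to 3, and black bars give the mean ± SD. The breeds are separate only at the second MBP probe set, and CHRNE spans from 61.4 to 323 across the animals.

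The alpha subunit gene CHRNA1 encodes the chain that carries the binding sites for acetylcholine. It read 728, 402 and 615 in Japanese Black 1, 2 and 3 and 648, 363 and 482 in Holstein 1, 2 and 3. Japanese Black 2 and Holstein 2 were the lowest animals of their breeds, and the breeds overlapped. The Japanese Black mean was 582 ± 166 (SD, n = 3) and the Holstein mean 498 ± 143 (SD, n = 3). The difference of 0.22 (SE 0.27) was smaller than the spread between animals, with an adjusted p of 0.745 by limma. Its 95% interval ran from -0.39 to 0.82, that is from 1.31-fold lower to 1.77-fold higher in Japanese Black. Single animals set its size: leaving out Holstein 2 gave 0.01 and Japanese Black 1 gave 0.04, whereas leaving out Holstein 1 gave 0.42 and Japanese Black 2 gave 0.45.

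The beta subunit gene CHRNB1, a structural chain present in both the fetal and the adult receptor, was the steadiest of the 4 subunits across the animals. It read 1584, 1600 and 1467 in the Japanese Black steers and 1683, 1304 and 1131 in the Holstein steers. The Japanese Black animals lay close together and inside the range of the Holstein animals. The difference was 0.19 (SE 0.17, adjusted p 0.637), with an interval from -0.19 to 0.57. A change of more than 1.49-fold toward Japanese Black lies outside that interval. The difference was 0.06 without Holstein 3 and 0.35 without Holstein 1.

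The delta subunit gene CHRND had the largest lean of the 4 relative to its error. Its signals were 36.3, 43.5 and 41.7 in Japanese Black and 43.1, 56.4 and 72.2 in Holstein. The groups met only at Japanese Black 2 and Holstein 1. The mean was 40.5 ± 3.73 (SD, n = 3) against 57.2 ± 14.6 (SD, n = 3), a difference of -0.36 (SE 0.18). It did not pass (unadjusted p 0.0854, adjusted p 0.452), and its interval reached from -0.77 to 0.06. The difference was -0.21 without Holstein 3 (unadjusted p 0.265, adjusted p 0.815). It was -0.50 without Holstein 1, the Holstein animal that overlaps (0.0294 and 0.411), and between -0.39 and -0.30 without each of the other animals, with unadjusted p between 0.11 and 0.201.

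The epsilon subunit gene CHRNE, which marks the adult form of the receptor, spread widely across the animals of both breeds. It read 61.4, 202 and 202 in Japanese Black and 196, 90.2 and 323 in Holstein. Japanese Black 1 and Holstein 2 were low, Holstein 3 was high, and the other 3 animals lay between 196 and 202. The highest animal read 5.26-fold the lowest, against 1.49-fold for CHRNB1, 1.99-fold for CHRND and 2.01-fold for CHRNA1. The SD of CHRNE over the 6 arrays was 0.79 on the log2 scale, and 1.68% of all probe sets tested had an SD at least as large. The breed difference of -0.35 (SE 0.49, adjusted p 0.775) had an interval from -1.46 to 0.76. The sign of that difference turned when 1 animal was left out, to 0.15 without Japanese Black 1 and to 0.04 without Holstein 3.

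The gene for the fetal gamma subunit, CHRNG, read between 6.61 and 16.4 in the 6 animals and lay below the filter that left out the dimmest 25% of probe sets, at a limit that corresponds to 16.4 intensity units. No detection calls were used, so whether a signal of this size lies above background was not tested.

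**Figure D2:**
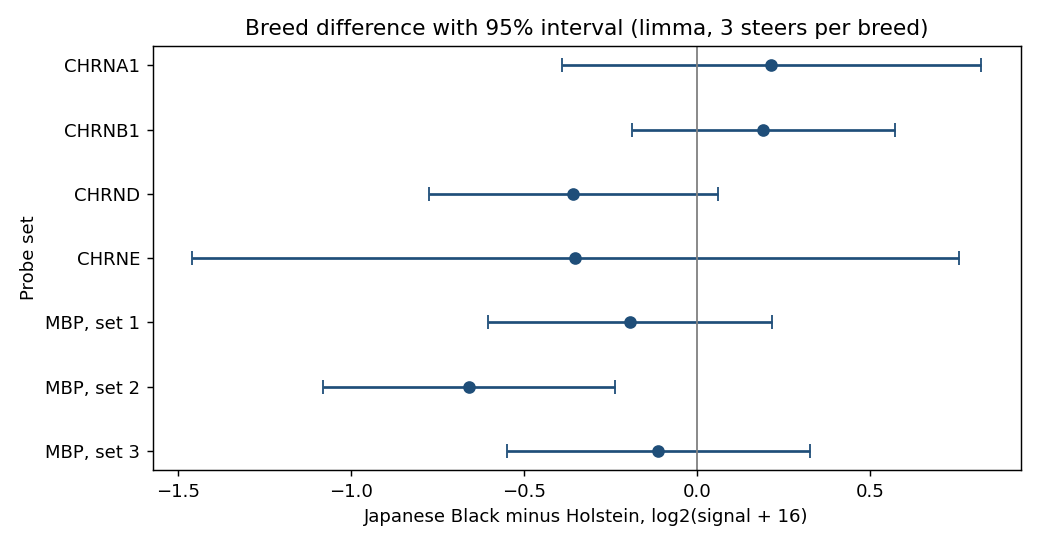
Breed difference on the log2(signal + 16) scale (horizontal axis, Japanese Black minus Holstein) for the 7 member probe sets tested, with limma's 95% interval, 3 steers per breed. The intervals of 6 include 0, the widest being CHRNE from -1.46 to 0.76, and the second MBP probe set runs from -1.08 to -0.24.

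The 4 subunits did not follow one order of animals. Their mean level on the log2 scale was 8.04, 8.26 and 8.36 in Japanese Black and 8.43, 7.96 and 8.497 in Holstein, so the breeds overlapped, with a difference of -0.08 against a within-breed SD of 0.24. Relative to its own mean, CHRNE stood at -1.17 in Japanese Black 1, the animal in which CHRNA1 stood at 0.47. In Holstein 2 both were low, by -0.71 for CHRNE and -0.51 for CHRNA1. Holstein 3 had the highest CHRNE (0.96) and the highest CHRND (0.47) together with the lowest CHRNB1 (-0.35). The map of centred values by steer shows these departures.

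Across the 6 animals 6 pairs of subunits were compared. For CHRNB1 and CHRND Pearson's r was -0.92 (exact permutation p 0.0236, adjusted over the 6 pairs 0.142) and Spearman's rho was -0.54 (exact permutation p 0.297, adjusted 0.594). Pooled over both breeds, on values centred on each breed mean, r was -0.93. That value rests mainly on the Holstein animals, which varied more. The log2 SD of CHRNB1 was 0.07 in Japanese Black and 0.29 in Holstein, and that of CHRND 0.10 and 0.29. Whether the relation holds inside each breed was not tested. Without the 2 animals farthest from the median of CHRNB1, r was 0.16. Leaving them out narrows the range of CHRNB1, so the 4 animals left cannot show whether the relation holds among them. The r of the other 5 pairs lay between -0.57 and 0.50, with exact permutation p between 0.24 and 0.713 and adjusted p between 0.54 and 0.713. Their rho lay between -0.77 and 0.60, with exact permutation p between 0.103 and 0.658 and adjusted p between 0.594 and 0.658. Without the 2 animals farthest from the median of the gene named first, r was 0.91 for CHRNA1 and CHRNB1, -0.97 for CHRNA1 and CHRND, -0.88 for CHRNA1 and CHRNE, 0.98 for CHRND and CHRNE and -0.03 for CHRNB1 and CHRNE. These values rest on 4 animals. No pair passed over the 6 animals after adjustment.

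**Figure D3:**
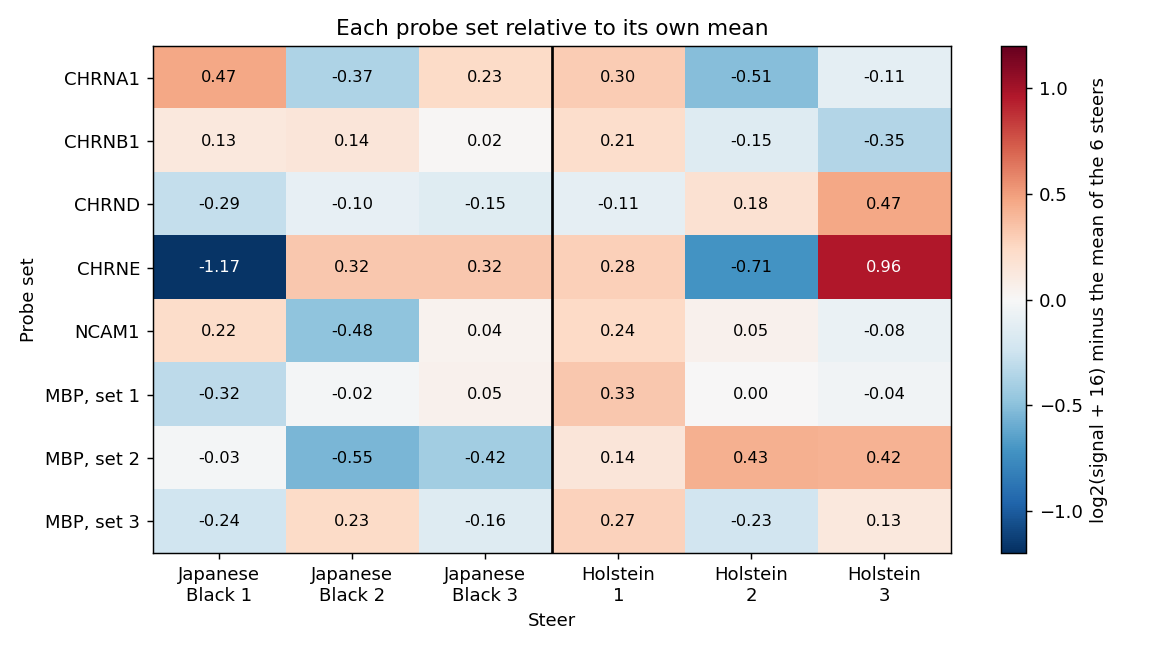
Each of the 8 member probe sets (rows) in each steer (columns), as log2(signal + 16) minus that probe set's mean over the 6 animals; red is above and blue below the mean. CHRNE ranges from -1.17 in Japanese Black 1 to 0.96 in Holstein 3, while the patterns of the 3 MBP probe sets differ from one another.

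Of the member genes, CHRNA1 and CHRNE varied by more than an SD of 0.3 over the arrays at their brightest probe set, and the genes with the most similar profiles were sought for these. Likeness was the root mean square difference of centred log2 values over the 6 arrays, among 10821 probe sets with 1 gene name. Closest to CHRNA1 were GSPT2, a translation termination factor, at 0.12, and CLDN1, a tight junction claudin, at 0.12. GSPT2 read 358, 211 and 372 in Japanese Black and 379, 228 and 268 in Holstein, low like CHRNA1 in animal 2 of each breed. Closest to CHRNE were CCL21, a chemokine of lymphatic vessels, at 0.22, and DNAJA4, a co-chaperone of heat shock proteins, at 0.25. DNAJA4 read 616, 1119 and 1354 in Japanese Black and 1305, 794 and 1752 in Holstein, with the same lowest animals, Japanese Black 1 and Holstein 2, and the same highest, Holstein 3. With 6 arrays and this many candidates, close profiles can be found for unrelated patterns too, and how often was not tested.

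NCAM1, the neural cell adhesion molecule carried by end plates, satellite cells and denervated fibres, gave a weak signal. It read 21.4, 6.93 and 16.9 in Japanese Black and 21.9, 17.2 and 14.4 in Holstein, and the breeds overlapped. It lay below the filter and so was not among the probe sets tested. When no filter was applied its difference was -0.15 (SE 0.21, adjusted p 0.818). The direction turned without Japanese Black 2, its lowest reading, which was the only alternative in which NCAM1 passed the filter. The satellite cell marker MYF5, 1 of 4 such markers that were annotated, read 17.4, 16.5 and 33.6 in Japanese Black and 41.9, 23.5 and 24.3 in Holstein.

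MBP, myelin basic protein, was read by 3 probe sets, numbered 1 to 3 in the plots by falling mean signal, and these differed in how far the breeds lay apart. Set 2 in that order separated them. The probe set Bt.6405.1.A1_at read 43.3, 25.5 and 29.3 in Japanese Black and 50.8, 65.3 and 64.9 in Holstein. All 3 Japanese Black animals lay below all 3 Holstein animals. The mean was 32.7 ± 9.41 (SD, n = 3) against 60.3 ± 8.27 (SD, n = 3), a difference of -0.66 (SE 0.19) or 1.58-fold. The unadjusted p was 0.00647 and the adjusted p 0.313, so it did not pass. With 64 added in place of 16 the difference was -0.36, and with 1 added -0.89.

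The brightest MBP probe set, Bt.12606.1.S1_a_at, read 63.5, 81.6 and 86.4 in Japanese Black and 108, 83.4 and 80.3 in Holstein. Here only Holstein 1 lay above every Japanese Black animal, and Japanese Black 1 below every Holstein animal. The difference was -0.19 (SE 0.18, adjusted p 0.656), and -0.08 without Holstein 1 or Japanese Black 1. The dimmest, Bt.12606.2.S1_at, read 13.2, 24.3 and 14.9 in Japanese Black and 25.6, 13.3 and 21.6 in Holstein, with a difference of -0.11 (SE 0.19, adjusted p 0.823) that was -0.0023 without Holstein 1 and -0.26 without Holstein 2. All 3 differences were toward Holstein, and the breeds were separate at 1 of the 3. MBP is a gene with several transcripts, and which of them each probe set reads is not stated in the annotation used here.

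Of 2 array controls of RNA integrity and labelling, 1 also separated the breeds. The ratio of 3′ to 5′ signal of the actin control was 1.11 to 1.14 in Japanese Black and 1.003 to 1.07 in Holstein. That of the GAPDH control overlapped, at 0.858 to 0.928 in Japanese Black and 0.796 to 0.884 in Holstein. The summed signal of the 4 leukocyte markers annotated of 5 sought, cells that can also express the MBP locus, was 259 to 413 in Japanese Black and 299 to 362 in Holstein, so the Holstein animals lay inside the Japanese Black range, with 0 of the 4 listed at 0 in any animal. Of these 4 leukocyte markers 2 differences were toward Japanese Black and 2 toward Holstein. The parts of RNA quality and of leukocytes in the MBP values were not tested.

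The other Schwann cell and myelin genes pointed both ways. All 10 annotated were tested, and 3 differences were toward Japanese Black and 7 toward Holstein, where 49.0% of all probe sets tested lay toward Holstein. The median was -0.15 (0.01 over all probe sets tested). The adjusted threshold was passed by 0, and an unadjusted p of 0.05 by 1 toward Japanese Black and 0 toward Holstein, where 7.31% and 5.28% of all probe sets did so. The breeds did not overlap at 3 of the 10, against 19.8% of all probe sets tested. S100B, a calcium-binding protein of Schwann cells that adipocytes also make, read 2218, 1370 and 2739 in Japanese Black and 876, 1354 and 1030 in Holstein. Its difference was 0.91 (SE 0.26, adjusted p 0.313), opposite in direction to all 3 MBP probe sets. The lowest Japanese Black animal exceeded the highest Holstein animal by only 16.5 intensity units. The summed signal of the 4 adipocyte markers annotated of 5 sought was 2332 to 11286 in Japanese Black and 1376 to 9017 in Holstein, with none of the 4 at 0. Both were highest in Japanese Black 3. Japanese Black 1, with the next highest S100B, had an adipocyte sum of 2332, and Holstein 2, with the next highest adipocyte sum (9017), had S100B at 1354. The part of fat cells in S100B was not tested.

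GFAP, a filament protein of non-myelinating Schwann cells, read 36.2, 26.1 and 32.1 in Japanese Black and 23.8, 15.1 and 23.7 in Holstein. The groups were separate by 2.27 intensity units, with a difference of 0.37 (SE 0.17, adjusted p 0.41). A second GFAP probe set, below the filter, differed by 0.01. GAP43, a growth-associated protein of axons and immature Schwann cells, read 41.3, 35.2 and 0.01 in Japanese Black and 32.4, 87.6 and 66.6 in Holstein. Its difference of -1.05 (SE 0.47, adjusted p 0.405) includes the near-zero reading of Japanese Black 3. SOX10, the transcription factor that specifies the Schwann cell lineage, was picked out after its values were seen. It read 41.3, 30.9 and 38.0 in Japanese Black and 42.7, 46.7 and 57.5 in Holstein, separate by 1.41 intensity units, with a difference of -0.30 (SE 0.17, adjusted p 0.472). Among the Schwann cell and myelin genes named here, S100B and GFAP lay toward Japanese Black and SOX10, GAP43 and MBP toward Holstein. No one of these differences passed. Over the whole list without MBP, 3 differences were toward Japanese Black and 7 toward Holstein.

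Of 24 further end plate genes sought, 11 were annotated and 8 tested; RAPSN, DOK7, LRP4 and AGRN, the partners of MUSK and of the receptor, were not among those annotated. Of the 8, 2 differences were toward Japanese Black and 6 toward Holstein, where 49.0% of all probe sets tested lay toward Holstein. The median was -0.20 (0.01 over all probe sets tested). The adjusted threshold was passed by 0, against 0.0167% of all probe sets tested, and an unadjusted p of 0.05 by 1, against 12.6%, so this count lies near the background. The groups did not overlap at 2 of the 8, against 19.8% of all probe sets tested. ACHE, the acetylcholinesterase that ends each signal in the cleft, read 25.1, 22.7 and 27.8 in Japanese Black and 32.9, 37.2 and 45.6 in Holstein. The groups did not overlap, and the difference was -0.40 (SE 0.16, unadjusted p 0.0315, adjusted p 0.371). A second ACHE probe set lay below the filter, listed at 0 in 3 animals. SNTB2, a syntrophin of the fibre membrane, read 752, 654 and 644 in Japanese Black and 479, 643 and 494 in Holstein, a difference of 0.34 (SE 0.17, adjusted p 0.435) in which the groups came within 0.50 intensity units. ERBB3, the neuregulin receptor of Schwann cells and end plates, read 22.4, 37.1 and 24.3 in Japanese Black and 34.6, 35.4 and 55.5 in Holstein, a difference of -0.39 (SE 0.20, adjusted p 0.451) with overlap.

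**Figure D4:**
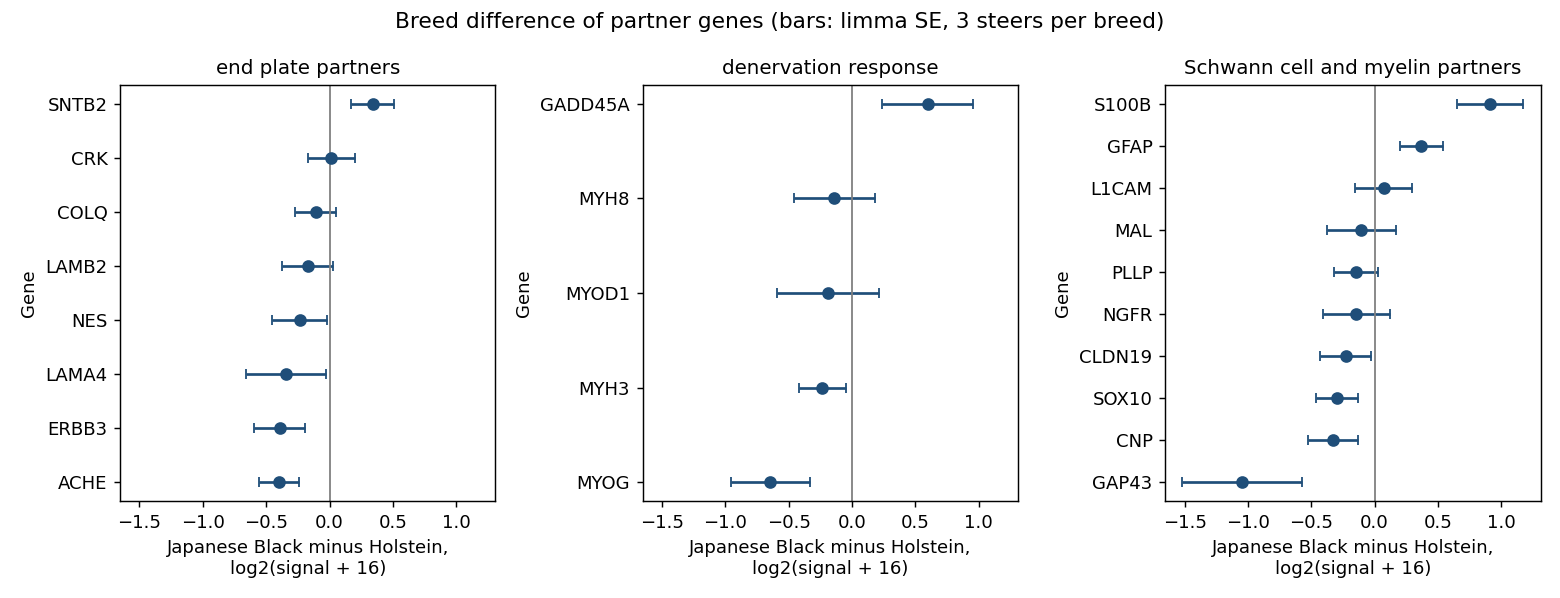
Breed difference on the log2(signal + 16) scale (horizontal axes, Japanese Black minus Holstein) of the partner genes tested, with limma's SE, 3 steers per breed; each gene is shown at its brightest probe set. The end plate genes run from -0.40 (ACHE) to 0.34 (SNTB2) and the Schwann cell genes from -1.05 (GAP43) to 0.91 (S100B).

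Genes that respond to loss of the nerve were sought as a further list of 10, of which 5 were annotated and tested. In that list 1 difference was toward Japanese Black and 4 toward Holstein, where 49.0% of all probe sets tested lay toward Holstein. The median was -0.19 (0.01 over all probe sets tested). An adjusted or an unadjusted p of 0.05 by limma was passed by 0, where 0.0167% and 12.6% of all probe sets tested did so. MYOG, myogenin, read 89.3, 58.3 and 98.6 in Japanese Black and 181, 75.3 and 176 in Holstein. Holstein 1 and Holstein 3 stood above all other animals and Holstein 2 among the Japanese Black ones, and the difference was -0.65 (SE 0.31, adjusted p 0.426). GADD45A, a stress-inducible gene that rises in denervated muscle, read 1256, 1438 and 902 in Japanese Black and 622, 1451 and 510 in Holstein, a difference of 0.60 (SE 0.36, adjusted p 0.499). MYH3, the embryonic myosin heavy chain, read 286, 286 and 259 in Japanese Black and 416, 292 and 290 in Holstein. The groups were separate by 3.89 intensity units, with a difference of -0.23 (SE 0.18, adjusted p 0.602). In this list the breeds did not overlap at 1 of the 5, against 19.8% of all probe sets tested. Without Holstein 1 the median of the 5 genes was 0.22, so the direction of this list rested on that animal.

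Neurons, whose cell bodies lie outside the muscle, were represented by few markers. Of 10 sought 5 were annotated, 3 of these passed the filter, and all 3 differences were toward Japanese Black without passing. Without Japanese Black 3, 2 of the 3 were toward Japanese Black and 1 toward Holstein. NEFL, the light neurofilament chain, read 26.7, 31.4 and 30.9 in Japanese Black and 12.2, 29.3 and 11.6 in Holstein, and the breeds overlapped. A second NEFL probe set, below the filter, went the other way, at 1.64, 0 and 6.68 in Japanese Black and 9.04, 8.70 and 11.4 in Holstein (difference -0.47, unadjusted p 0.0261, adjusted p 0.413 by limma with no filter). The neurofilament gene NEFM read 9.74 or less in all 6 animals.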

How the data were processed

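Total RNA of 6 muscle samples was hybridised as biotin-labelled cRNA to Affymetrix arrays, 1 per steer, per the labels' protocols. Each deposited value is the linear intensity of a probe set on an array. The submitters' processing notes name GCOS 1.1.1 and Affymetrix Expression Console 1.1; how probes were summarised and scaled is not given in the sources used here. No further scaling was applied. After removal of 112 control probe sets, 16 was added to each intensity, log2 was taken and the dimmest 25% of 24016 probe sets by mean were left out, which removed NCAM1. Breed differences were fitted in limma 3.58.1 (R 4.3.3; eBayes with trend, two-sided), and p-values were adjusted over 18012 probe sets by Benjamini-Hochberg. The step was run on simulated data only to check that planted differences were recovered on average, and no power or error rate is given from it. The number of arrays limits the precision. A paired t-test is named in the series design, but the labels link no Holstein to a Japanese Black animal, and animal numbers only name the animals. Nothing in the labels says that tissue was pooled.

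Gene names came from the platform annotation: 13292 probe sets had 1 symbol, 86 several and 10638 none, and through gene identifiers 13263 matched RefSeq (ARS-UCD2.0), with 0 symbols changed. No coordinates or sequences are given. For a partner gene the brightest probe set (by mean signal) was used. Named genes were all member probe sets and the 3 genes of smallest p in each of 3 partner lists. Also named were the 2 closest profiles to each member with an SD above 0.3. CHRNG, of the end plate list, was named outside these rules. Others are said to be chosen after their values were seen, or are markers of the lists for other cells. The members and lists were chosen with earlier results of these data known. As alternatives the offset was 1 or 64, the filter was dropped or took the dimmest 50%, and the others were quantile normalization, median centring, no trend, array weights, the plain t-test, each animal left out and all 6 matchings of animals. Plots used matplotlib 3.10.9 (Python 3.11.15).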

Additional observations from a re-analysis of the deposited data

How the results depend on the processing

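The count of members past an adjusted p of 0.05 was 0 under all 21 alternatives. The count at an unadjusted p of 0.05 was 1; it was 0 with the dimmest 50% left out, which removed that MBP probe set, and ranged from 1 to 2 when single animals were left out, CHRND being added without Holstein 1. The filter changes, no trend, the plain t-test and the matchings leave a probe set's difference unchanged, so direction could not turn under these. Of 145 comparisons of a member's difference with its main value 142 kept direction and side of the threshold. The exceptions were CHRNE, from -0.80 to 0.15 over the left-out animals, and NCAM1, 0.059 without Japanese Black 2; the cause was not tested. Quantile normalization and median centring turned the direction of none of the 7 member probe sets tested; NCAM1 lay below the filter there. The MBP probe set with no overlap lay between -0.89 and -0.36, with adjusted p between 0.246 and 0.633. Pairing the animals as a replicate block under the 6 possible matchings left the member counts at 0 and 1. The level difference lay between -0.24 and 0.03 for the receptor subunits and between -0.27 and -0.08 for MBP.

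Over all probe sets the count past the adjusted threshold was 3. It was 0 with an offset of 1, with the dimmest 50% left out and with the plain t-test, 10 with array weights, 0 to 15 with single animals left out, and 0, 0, 1 and 7 under 4 matchings of the replicate block, against 2 and 3 under the others. The cause was not tested. Dim signals limit NCAM1, CHRND, CHRNG and MBP: the offset sets part of the size, and CHRND was -0.46 with an offset of 1 and -0.21 with 64.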

Other observations

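MYOD1, a myogenic transcription factor of the list of denervation genes, was picked out after its values were seen. It read 26.9, 10.4 and 28.7 in Japanese Black and 59.1, 6.13 and 29.1 in Holstein. Its 2 lowest animals, Japanese Black 2 and Holstein 2, were also the 2 lowest for CHRNA1 and MYOG, and they were the 2 highest for GADD45A. The breeds overlapped for all 4 genes. A second MYOD1 probe set, below the filter, read 12.1 or less in every animal and 0 in Japanese Black 2. These are values of 6 animals side by side, and no test was made of them.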
